A study of Mus musculus with 10 samples.

Results

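The genes described here encode 3 proteases of the ADAMTS family (Adamts1, Adamts4 and Adamts5) and 6 matrix proteins that these enzymes cut or that hold the cut proteins in place (Bcan, Ncan, Vcan, Acan, Hapln1 and Tnr). They were chosen by gene symbol, and are 9 of the 19936 genes measured, each with 1 transcript cluster (a set of array probes for 1 transcript). Adamts1 and Adamts5 lie on mouse chromosome 16 (Mmu16) in the stretch that the Ts65Dn mouse carries in 3 copies, and the other 7 genes are in 2 copies. Hippocampal RNA of 5 Ts65Dn mice was set against that of 5 control littermates, with 1 Affymetrix array per mouse. All 10 mice were males of 16 weeks on an F1 hybrid B6C3B background, and the right and left hippocampi of a mouse were pooled. Ts65Dn mice model Down syndrome through an inherited, freely segregating minichromosome, present in every cell type, that carries the Mmu16 stretch and also genes of mouse chromosome 17 whose human counterparts are not on chromosome 21. The labels call the samples biological replicates. Values are log2 signals as normalised by the authors, so a difference of 1 is a doubling.

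Lecticans are chondroitin sulphate proteoglycans of the space between cells. Their heads bind hyaluronan, link proteins such as HAPLN1 fasten that bond, and tenascin-R joins their tails, which gives the matrix of the adult brain, including the perineuronal nets around many inhibitory neurons. ADAMTS1, ADAMTS4 and ADAMTS5 are secreted metalloproteinases that cut the core proteins of lecticans, and are also called aggrecanases.

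Of the 23410 transcript clusters tested with limma, 73 were higher in Ts65Dn (0.312%) and 1 was lower (0.00427%) at an adjusted p under 0.05. Array medians lay between 7.38 and 7.41. The mean of 10 markers of hippocampal excitatory neurons was 9.98 to 10.29 in Ts65Dn mice and 10.15 to 10.29 in control mice, and its brightest gene, Calb1, a calcium-binding protein of granule cells, averaged 11.21 ± 0.148 in Ts65Dn mice and 11.35 ± 0.0521 in control mice (SD, n = 5 each). Single markers of that list differed in sign: Wfs1, a CA1 marker, was 10.34 to 10.73 in Ts65Dn mice and 10.84 to 10.97 in control mice (difference -0.35 ± 0.07, SE; limma adjusted p = 0.0925), with no overlap, and C1ql2, a granule cell marker, had a difference of 0.24 ± 0.13 with overlap; both were named after their values were seen. The choroid plexus marker mean (9 genes) spanned 6.90 to 9.56 in Ts65Dn and 7.01 to 9.23 in control mice. It was highest in Ts65Dn replicates 2 and 4 and control replicate 5. All 9 differences were positive and none passed, and Clic6 (0.66 ± 0.78, SE) and Kcne2 (0.39 ± 0.39) are themselves in 3 copies in Ts65Dn. In these bulk samples fewer cells of a type and less RNA per cell cannot be told apart.

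With genotype as the only term of the fit, Adamts1 and Adamts5 passed the test, both higher in Ts65Dn, and none of the 7 genes in 2 copies did. That made 2 of 9 members called higher and 0 called lower, where 0.312% and 0.00427% of all clusters were. The folds were 1.25 for Adamts1 and 1.22 for Adamts5. The lecticans Bcan, Vcan and Acan and the crosslinker Tnr had log2 differences of -0.06 to 0.02, while Ncan and the link protein gene Hapln1 had positive differences that did not pass.

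The stretch of 250 bases before the transcription start of Adamts1 is shown because Adamts1 is 1 of the 2 genes that passed the test, and Ncan and Hapln1 are set beside it as the members in 2 copies with the smallest unadjusted p. The start is that of the transcript in the RefSeq promoter table, which for Ncan and Hapln1 lies inside the annotated gene. Each is the RefSeq sequence of GRCm38.p6, read 5′ to 3′ on the strand of the gene: Adamts1 at chr16:85803114-85803363 (minus strand), Ncan at chr8:70120845-70121094 (minus strand) and Hapln1 at chr13:89540386-89540635 (plus strand). Capitals mark matches, on either strand, to the GC box GGGCGG and the TATA box TATAAA.
Adamts1: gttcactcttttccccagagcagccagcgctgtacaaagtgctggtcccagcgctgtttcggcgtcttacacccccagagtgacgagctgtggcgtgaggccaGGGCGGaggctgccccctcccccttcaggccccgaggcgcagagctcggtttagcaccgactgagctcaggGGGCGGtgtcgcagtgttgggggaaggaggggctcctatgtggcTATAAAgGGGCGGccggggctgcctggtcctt
Ncan: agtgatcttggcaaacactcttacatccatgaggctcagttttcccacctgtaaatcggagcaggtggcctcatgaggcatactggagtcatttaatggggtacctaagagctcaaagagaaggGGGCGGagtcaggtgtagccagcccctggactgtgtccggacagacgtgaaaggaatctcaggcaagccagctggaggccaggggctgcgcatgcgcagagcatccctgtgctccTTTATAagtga
Hapln1: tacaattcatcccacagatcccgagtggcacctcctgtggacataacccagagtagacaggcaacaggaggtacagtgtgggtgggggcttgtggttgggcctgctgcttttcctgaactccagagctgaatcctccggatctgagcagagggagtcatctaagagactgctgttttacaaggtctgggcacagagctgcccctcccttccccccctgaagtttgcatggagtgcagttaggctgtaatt
The Adamts1 stretch held 15 CG dinucleotides and 65.6% G and C, against a median of 6 and 52.4% over 32851 mouse windows of this length. It had 3 GC boxes and a TATA box at 32 to 27 bases before the start, with the last GC box at 25 to 20. Ncan had 1 GC box and a TATA box read on the opposite strand, with 6 CG dinucleotides and 54.4% G and C. Hapln1 also had 54.4% G and C with 2 CG dinucleotides, and none of the 5 motifs searched. Those motifs were the GC box (in 32.7% of windows), the TATA box (12.4%), the CCAAT box CCAAT (33.8%), the E-box CACGTG (6.02%) and the cyclic AMP response element TGACGTCA (1.55%), each on both strands. A window was found for 7 of the 9 genes, and no match to one motif overlapped a match to another in them. Of the windows not shown, Acan had 3 GC boxes, Vcan 2 and Bcan 1, each beside 1 CCAAT box, and Tnr had none of the motifs. A match is a run of letters and says nothing about binding.

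Adamts1 was higher in Ts65Dn. Its log2 signal was 8.40, 8.51, 8.51, 8.48 and 8.40 in Ts65Dn mice, against 8.07, 8.03, 8.09, 8.25 and 8.28 in control mice. The genotypes did not overlap, and control replicates 4 and 5 came closest to the Ts65Dn mice. The difference was 0.32 ± 0.06 (SE; 95% interval 0.19 to 0.44), a fold of 1.25 (1.14 to 1.35), with a limma adjusted p of 0.0419 and an exact two-sided permutation p of 0.00794, the smallest that 5 against 5 mice allow. The gene lies at chr16:85793827-85803113 on the minus strand, and its product cuts versican and aggrecan.

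Adamts5 was higher in Ts65Dn as well. Its log2 signal was 5.88, 5.94, 5.72, 5.88 and 5.84 in Ts65Dn mice, against 5.51, 5.55, 5.58, 5.50 and 5.67 in control mice. The genotypes did not overlap, with Ts65Dn replicate 3 lowest of its group and control replicate 5 highest of its own. The difference was 0.29 ± 0.05 (SE; 95% interval 0.18 to 0.40), a fold of 1.22 (1.14 to 1.32), with a limma adjusted p of 0.0289 and an exact permutation p of 0.00794. Only 25.2% of tested clusters were dimmer than the Adamts5 one. The authors' normalization compresses ratios of dim genes in general, and its part in the Adamts5 fold was not tested. Adamts5, at chr16:85858157-85901125, encodes the main aggrecanase of mouse cartilage.

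Adamts4 is in 2 copies, at chr1:171250129-171262267, and is known in the brain from mature oligodendrocytes. It had signals of 8.70, 8.39, 8.16, 8.35 and 8.73 in Ts65Dn mice, against 8.52, 8.60, 8.37, 8.63 and 8.55 in control mice. The groups overlapped, and the Ts65Dn mice spanned both the lowest and the highest value. The difference was -0.07 ± 0.10 (SE; interval -0.30 to 0.15; limma adjusted p = 1).

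The neighbouring proteases were then compared with each other within each mouse. The Adamts5 signal minus the Adamts1 signal averaged -2.61 in Ts65Dn mice and -2.58 in control mice, and the change was -0.03 ± 0.07 (SE; interval -0.18 to 0.13), with an exact permutation p of 0.659. The interval still allows a difference of either sign. Neither gene's 95% interval reached 0.58, the log2 of 1.5: the upper ends were 0.44 for Adamts1 and 0.40 for Adamts5.

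**Figure D1:**
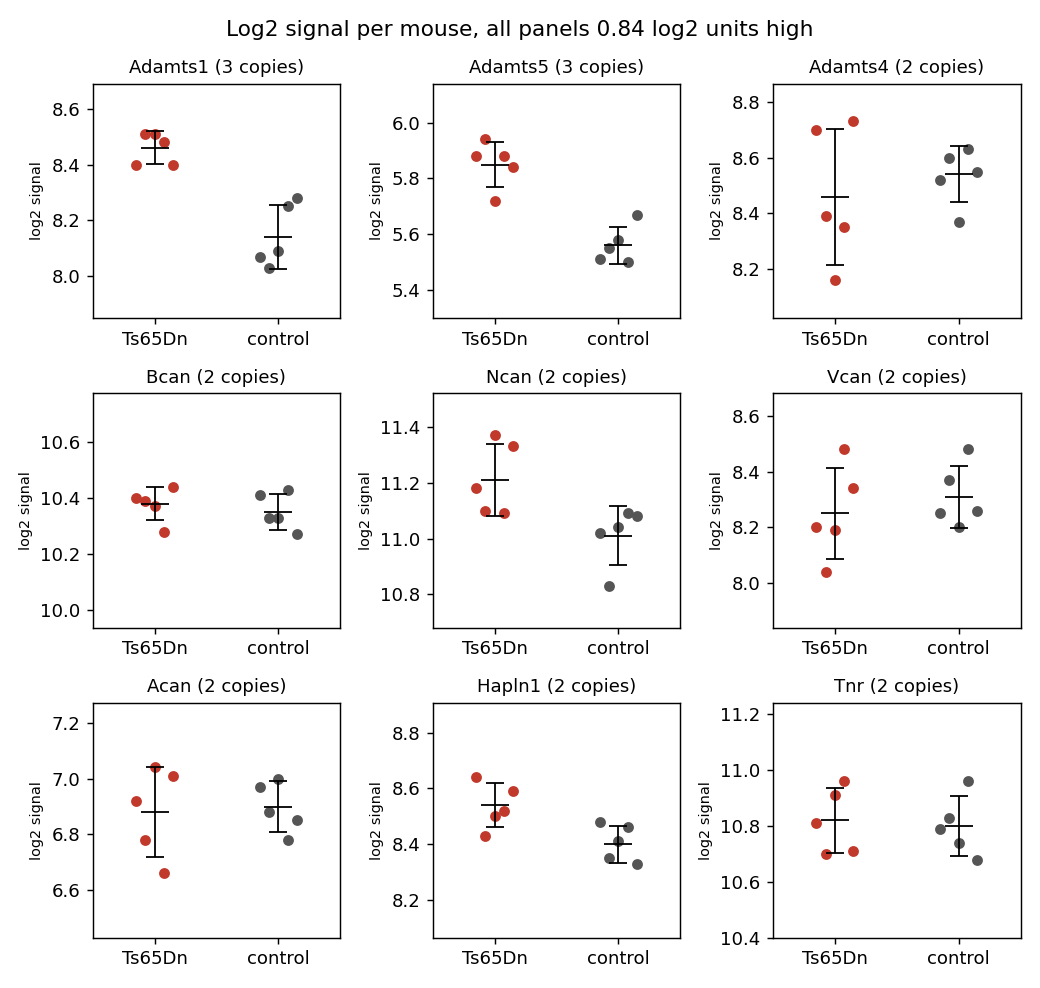
Log2 signal of each of the 9 genes (panels, y axis) in each Ts65Dn mouse (left points) and control mouse (right points), with bars for the mean and SD of 5 mice. Adamts1 and Adamts5 are the genes with no overlap between genotypes, with Adamts1 at 8.40 to 8.51 in Ts65Dn mice and 8.03 to 8.28 in control mice, and Adamts5 at 5.72 to 5.94 in Ts65Dn mice and 5.50 to 5.67 in control mice.

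Both calls lay near the threshold. With the replicate number as a block in the fit, Adamts1 (limma adjusted p = 0.149) and Adamts5 (0.117) did not pass. In the fits that left out 1 array at a time, the Adamts1 difference stayed between 0.29 and 0.35 and passed the threshold without control replicate 4 (limma adjusted p = 0.0481) or control replicate 5 (0.0224). Its adjusted p lay between 0.0707 and 0.156 without any other array, that is without Ts65Dn replicates 1 to 5 or control replicates 1 to 3. The Adamts5 difference stayed between 0.27 and 0.32 and passed without Ts65Dn replicate 3 (0.0122) or control replicate 5 (0.0235), while its adjusted p lay between 0.0763 and 0.102 without any of Ts65Dn replicates 1, 2, 4 and 5 and control replicates 1 to 4. With unnamed rows also in the fit the adjusted p was 0.0748 for Adamts1 and 0.0502 for Adamts5. Adamts5 kept its call with the choroid plexus marker mean as a covariate (adjusted p = 0.0163), whereas the adjusted p of Adamts1 was 0.0715 there. With only the 7 choroid markers in 2 copies in the covariate, a setting chosen after the data had been seen, the adjusted p was 0.0143 for Adamts5 and 0.0672 for Adamts1. Without the 3 arrays highest in choroid plexus markers the differences were 0.33 for Adamts1 and 0.28 for Adamts5, with limma adjusted p of 0.199 for Adamts1 and 0.17 for Adamts5. The part of choroid plexus tissue in these values was not tested.

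The Mmu16 stretch in 3 copies, from Mrpl39 to Zbtb21, held 127 measured genes, and Adamts1 and Adamts5 were 51st and 56th of them by log2 difference. Of these genes 42 passed the limma test, all higher in Ts65Dn, with folds of 1.18 to 1.57 and a median of 1.33. The folds of Adamts1 (1.25) and Adamts5 (1.22) lay below that median. Over all 127 genes the median fold was 1.15. The ranks and the median of 1.15 include the block from Cldn17 to Krtap11-1, largely keratin-associated genes, with log2 differences of -0.09 to 0.06. That block was named after its values were seen. Below the median signal of 7.40 lay 69 of the 127 genes, of which Adamts5 and Grik1 (a kainate receptor gene, named after its value was seen) passed and 10 had an unadjusted p under 0.05. Of the 40 genes dimmer than Adamts5, 0 passed in limma and 1 had an unadjusted p under 0.05. The neighbours on each side were App (fold 1.21, adjusted p = 0.0161), Gm10791 (1.35, 0.419), Cyyr1 (1.43, 0.0212), N6amt1 (1.23, 1), Ltn1 (1.42, 0.0307) and Rwdd2b (1.38, 0.0166). App encodes the amyloid precursor protein and Ltn1 a ubiquitin ligase of stalled ribosomes. Gm10791 lies within App, so the signals of this pair may not be separate.

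**Figure D2:**
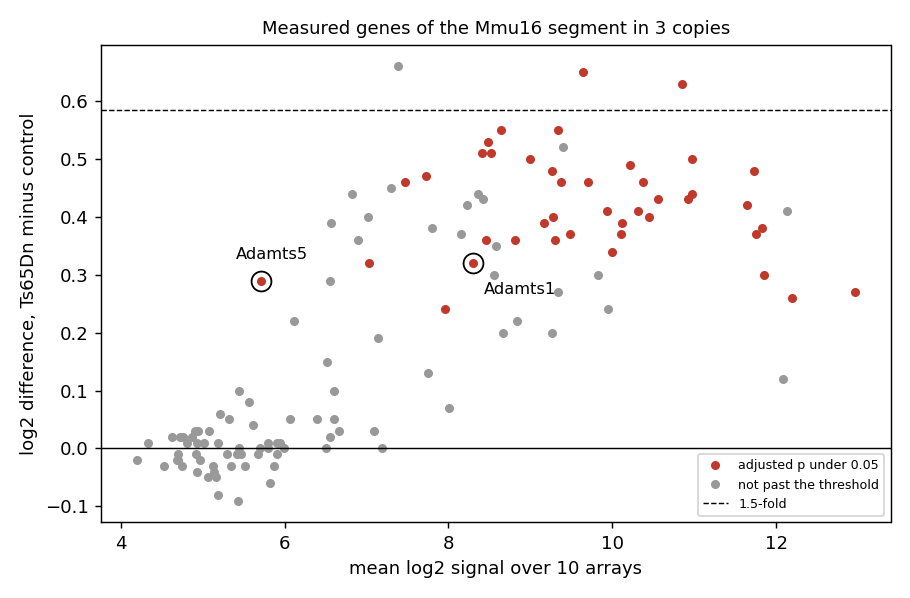
Log2 difference between Ts65Dn and control mice (y axis) against the mean log2 signal (x axis) for the 127 measured Mmu16 genes in 3 copies, with Adamts1, Adamts5 and called genes marked. Adamts1 sits at 8.30 and 0.32, and Adamts5 at 5.71 and 0.29, among the 69 genes under a signal of 7.40, whose median difference is 0.01.

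Ncan (neurocan, a lectican of the brain) was the lectican with the smallest p. Its signal was 11.18, 11.10, 11.37, 11.09 and 11.33 in Ts65Dn mice, against 11.02, 10.83, 11.04, 11.09 and 11.08 in control mice. The groups overlapped at 11.09, and control replicate 2 lay below the rest. The difference was 0.20 ± 0.07 (SE; interval 0.05 to 0.35), a fold of 1.15, with an unadjusted p of 0.0139 and a limma adjusted p of 1. The exact permutation p was 0.0159. Ncan lies at chr8:70093085-70120863.

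Bcan, which encodes brevican, was 10.40, 10.39, 10.37, 10.28 and 10.44 in Ts65Dn mice, against 10.41, 10.33, 10.33, 10.43 and 10.27 in control mice, with a difference of 0.02 ± 0.04 (SE; interval -0.07 to 0.12). Brevican is a lectican particular to the nervous system, and its gene lies at chr3:87987531-88002175. Vcan (versican) was 8.20, 8.04, 8.19, 8.48 and 8.34 in Ts65Dn mice, against 8.25, 8.37, 8.20, 8.48 and 8.26 in control mice, a difference of -0.06 ± 0.08 (interval -0.24 to 0.11). Acan (aggrecan, a lectican of perineuronal nets) was 6.92, 6.78, 7.04, 6.66 and 7.01 in Ts65Dn mice, against 6.97, 6.88, 7.00, 6.78 and 6.85 in control mice. The Acan difference was -0.01 ± 0.07 (interval -0.18 to 0.15). Values of both genotypes were interleaved in all 3 genes, and each limma adjusted p was 1. Vcan lies at chr13:89655309-89743027 and Acan at chr7:79053226-79115099. The sign of the Acan difference turned to 0.01 with the choroid covariate and to 0.08 without the 3 arrays highest in choroid plexus markers.

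Hapln1, the link protein, was 8.64, 8.43, 8.50, 8.52 and 8.59 in Ts65Dn mice, against 8.48, 8.35, 8.41, 8.46 and 8.33 in control mice. The lowest Ts65Dn mouse, replicate 2, was under the highest controls. The difference was 0.13 ± 0.05 (SE; interval 0.03 to 0.24), with an unadjusted p of 0.0169, a limma adjusted p of 1 and an exact permutation p of 0.0317. Tnr, which encodes tenascin-R, was 10.81, 10.70, 10.91, 10.96 and 10.71 in Ts65Dn mice, against 10.79, 10.83, 10.74, 10.96 and 10.68 in control mice. Its difference was 0.02 ± 0.07 (interval -0.13 to 0.16), the groups overlapped, and its sign turned to -0.02 without the 3 arrays highest in choroid plexus markers. Hapln1 lies at chr13:89540529-89611832 and Tnr at chr1:159523729-159931729.

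Counted over the 9 genes, 6 differences were positive and the median difference was 0.02, beside a median of 0.00 with 9489 of 19936 positive over all genes. An unadjusted p under 0.05 was met by 4 members higher (Adamts5, Adamts1, Ncan and Hapln1) and 0 lower, against 1.73% and 1.43% of all clusters. The genotypes were fully separated for 2 members, both higher, and for 0 lower, where 0.577% and 0.308% of clusters were. The rank method used by the study, rewritten for these data, called the same 4 members higher and 0 lower, against 2.89% and 2.47% of clusters. Each of these counts includes Adamts1 and Adamts5, the members in 3 copies.

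**Figure D3:**
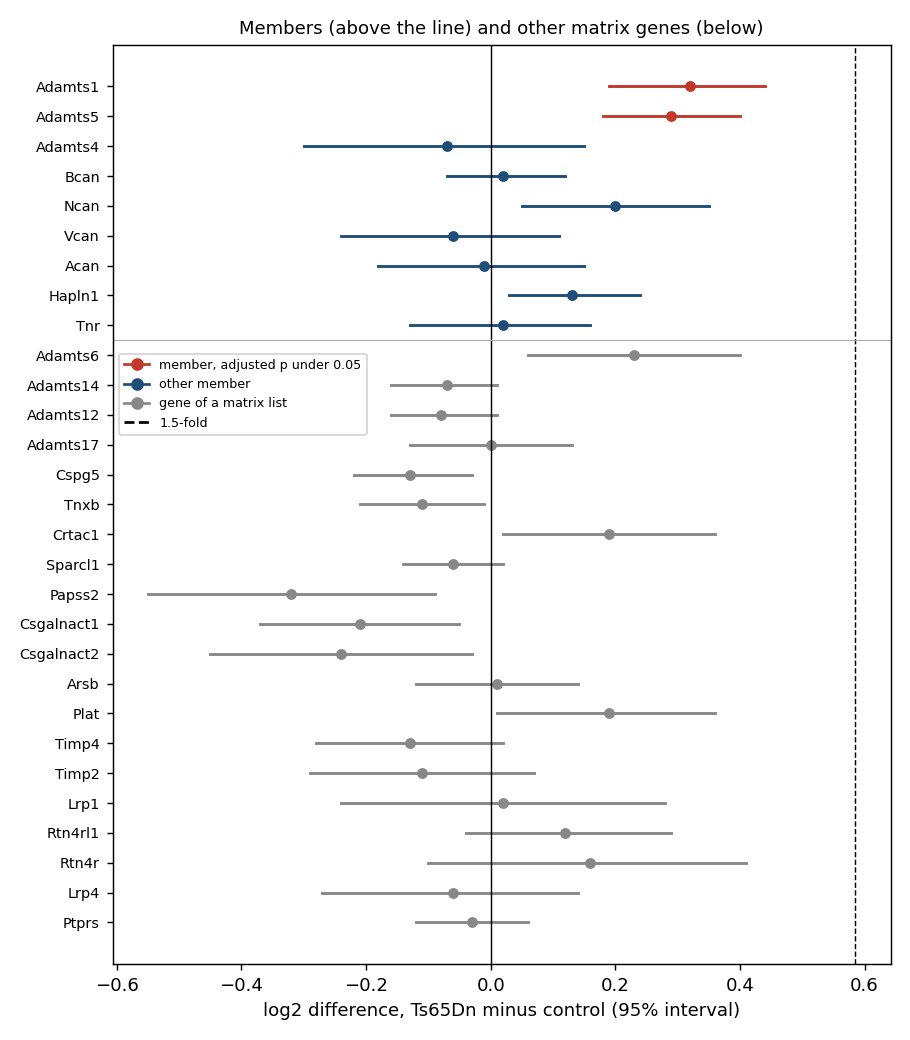
Log2 difference (points) with its 95% interval (lines) between Ts65Dn and control mice for the 9 members and the named genes of the 5 matrix lists. The intervals of Adamts1 and Adamts5, which passed the limma test, lie above 0 and below the dashed line at 0.58 (1.5-fold). Those of Ncan, Hapln1, Adamts6, Crtac1 and Plat lie above 0, and those of Papss2, Csgalnact1, Csgalnact2, Cspg5 and Tnxb lie below 0. None of these other genes passed the limma test. The intervals are not adjusted for the number of genes tested. Apart from the brightest of each list, the named list genes were picked for the smallest p, which favours intervals that leave out 0.

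Other genes of the pathway, in 5 lists, gave 0 calls in limma out of 102 measured of 106 listed. At an unadjusted p under 0.05 they had 5 higher and 5 lower, where 1.73% and 1.43% of all clusters were. Of the 102 differences 37 were positive, with a median of -0.02. By the rank method 8 were called higher and 6 lower, where 2.89% and 2.47% of all clusters were. None of these genes is in 3 copies.

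Among 21 other ADAMTS and ADAMTS-like genes, the median difference was -0.03 and 8 were positive. Adamts6 was 6.50, 6.44, 6.67, 6.84 and 6.57 in Ts65Dn mice, against 6.25, 6.36, 6.35, 6.53 and 6.38 in control mice, with a difference of 0.23 ± 0.08 (SE; unadjusted p = 0.0112, limma adjusted p = 1). Adamts12 had a difference of -0.08, Adamts14, a procollagen peptidase, one of -0.07, and Adamts17, the brightest of the list, one of 0.00. Among the 25 matrix partners, 7 differences were positive and the median was -0.05. Cspg5 (neuroglycan C, a proteoglycan of neuronal membranes) was 10.74, 10.61, 10.68, 10.56 and 10.67 in Ts65Dn mice, against 10.87, 10.72, 10.80, 10.74 and 10.76 in control mice, a difference of -0.13 ± 0.04. Tnxb (tenascin-X) differed by -0.11 and Crtac1 by 0.19, and Sparcl1 (hevin), the brightest, by -0.06.

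Of the 24 enzymes that make, sulphate or break chondroitin sulphate chains, 9 differences were positive, with a median of -0.02. Papss2, an enzyme that makes the sulphate donor of the chains, was 8.96, 8.54, 8.61, 9.0 and 8.86 in Ts65Dn mice, against 9.42, 9.05, 9.07, 9.02 and 9.01 in control mice. All 5 Ts65Dn mice were below the 5 control mice, as in 0.308% of all clusters. The difference was -0.32 ± 0.11 (SE; unadjusted p = 0.011, limma adjusted p = 1). Csgalnact1 and Csgalnact2, which start the chains, differed by -0.21 ± 0.07 and -0.24 ± 0.10, and Arsb, a lysosomal sulphatase, by 0.01. A further list held other matrix proteases together with inhibitors, activators and uptake receptors of ADAMTS proteases. Of its 22 measured genes (25 listed) 9 differences were positive with a median of 0.00. Plat, the tissue plasminogen activator, was 8.74, 8.80, 8.71, 9.04 and 8.66 in Ts65Dn mice, against 8.51, 8.60, 8.81, 8.49 and 8.60 in control mice, a difference of 0.19 ± 0.08. The protease inhibitors Timp4 and Timp2 differed by -0.13 and -0.11, and Lrp1, a receptor that takes up ADAMTS proteases, by 0.02. Of 10 receptors of chondroitin sulphate proteoglycans, 4 differences were positive and the median was -0.01, with Rtn4r at 0.16, Rtn4rl1 at 0.12 and Ptprs at -0.03.

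The matrix genes are made by particular cells, and marker lists of 11 cell types and states were set beside them. Of 93 marker genes measured, 0 passed in limma. At an unadjusted p under 0.05 there were 2 with a positive and 7 with a negative difference, where 1.73% and 1.43% of all clusters were. The positive ones were Rgs5 (0.13 ± 0.05, SE) and Pcp4 (0.12 ± 0.05), and Pcp4 is itself in 3 copies in Ts65Dn. By the rank method 3 markers were called higher and 17 lower, where 2.89% and 2.47% of all clusters were. The mean of the oligodendrocyte precursor markers was 8.23 to 8.37 in Ts65Dn mice and 8.35 to 8.45 in control mice, with an exact permutation p of 0.0397 (0.437 adjusted over 11 lists), and 0 of 7 differences were positive. The mean of 12 activity-induced genes was 7.72 to 7.96 in Ts65Dn mice and 7.70 to 8.43 in control mice (exact permutation p = 0.0952, 0.524 adjusted over 11 lists). Of these 12 genes 4 were lower at an unadjusted p under 0.05, against 1.43% of all clusters, and 1 difference was positive. The rank method called 10 of the 12 lower, against 2.47% of all clusters, and these are among the 17 above. The astrocyte marker mean was 10.47 to 10.60 in Ts65Dn mice and 10.49 to 10.57 in control mice. The part of these cells and states in the differences above was not tested.

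Adamts4 varied with the mature oligodendrocyte markers from mouse to mouse. The mean of the 7 markers was 11.33, 11.21, 10.84, 11.07 and 11.51 in Ts65Dn mice, against 11.18, 11.22, 11.12, 11.30 and 11.29 in control mice, and Ts65Dn replicates 5 and 3 were highest and lowest in both measures. Over the 10 mice, after the genotype mean was removed, Pearson's r was 0.937 (permutation p = 0.00043, 0.0426 adjusted over 99 relations) and Spearman's rho 0.927 (permutation p = 0.00291, 0.288 adjusted). Without those 2 mice r was 0.87. Within the Ts65Dn mice r was 0.954 and within controls 0.842. This relation was the only 1 of 99 that passed for r, none passed for rho, and all 99 were chosen after the data had been seen. The shuffles took no account of replicate numbers. In each genotype replicate 3 was lowest in Adamts4 and in the mean of the mature markers. With the oligodendrocyte precursor markers the r of Adamts4 was 0.832 (permutation p = 0.0184, 0.265 adjusted). There r was 0.989 within the Ts65Dn mice and 0.273 within controls.

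**Figure D4:**
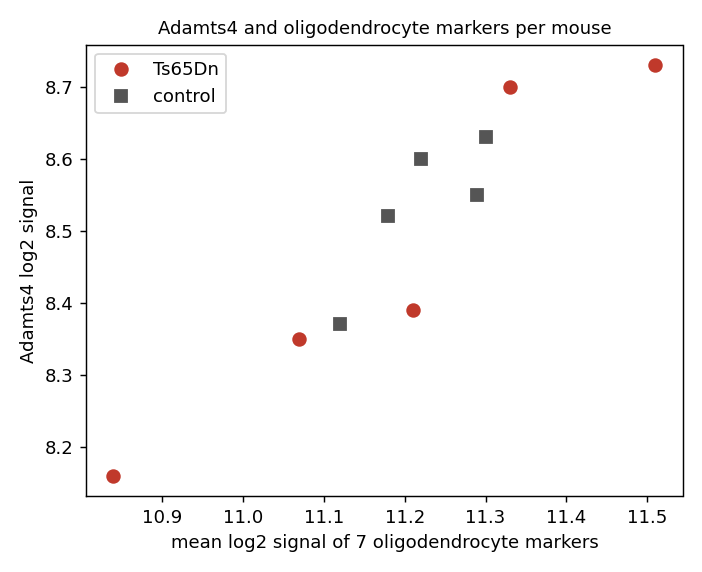
Log2 signal of Adamts4 (y axis) against the mean log2 signal of 7 mature oligodendrocyte markers (x axis), with 1 point for each Ts65Dn and control mouse. Ts65Dn replicate 5 is at the upper right, at 11.51 and 8.73, and Ts65Dn replicate 3 at the lower left, at 10.84 and 8.16.

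Before adjustment, 12 of the 99 relations had a permutation p for r under 0.05. After Adamts4 and mature oligodendrocytes, the smallest was for Tnr and vessel markers (r of -0.677, permutation p = 0.012, 0.265 adjusted). Next came Bcan and astrocyte markers (r of -0.853, permutation p = 0.0133, 0.265 adjusted), then Ncan and CA2 markers (-0.788, 0.0134, 0.265 adjusted). Without the 2 mice farthest from the median of the marker mean, r was -0.355 for Tnr, -0.805 for Bcan and -0.645 for Ncan. For Adamts5 and the choroid plexus marker mean, r was 0.758 (permutation p = 0.0154, 0.265 adjusted) and rho 0.721 (permutation p = 0.0255, 0.421 adjusted). That r was 0.47 without control replicate 5 and Ts65Dn replicate 2. Among the 36 pairs of members, 0 passed adjustment and 1 had a permutation p under 0.05: Vcan and Tnr, with r of 0.681 (permutation p = 0.0482, 0.734 adjusted) and rho of 0.552 (permutation p = 0.128, 0.752 adjusted). Without Ts65Dn replicate 4 and control replicate 4 that r was 0.222.

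For each member, the 3 genes whose deviations from the genotype means were most alike over the 10 arrays were picked from 9976 brighter genes, so high values of r are bound to occur and no test is given. For Adamts4 they were Foxn3 (r of 0.957), Abl1 (0.936) and Zfyve21 (0.928). For Adamts5 they were Ifi27 (0.943), P3h4 (0.941) and Cd63 (0.918), and for Adamts1 Slc46a3 (0.857), Tgfbr3 (0.847) and Slc45a4 (0.845). Cd63 encodes a tetraspanin of late endosomes and Tgfbr3 a coreceptor of transforming growth factor beta. For Ncan they were Dnm1 (0.966), Pcif1 (0.961) and Dpf1 (0.955), and for Bcan Gprin3 (0.914), Xrcc1 (0.906) and Phf13 (0.895). Dnm1 encodes the dynamin of synaptic vesicle recycling. Vcan had Zfp236 (0.981), Dock10 (0.965) and Plekha5 (0.937), and Acan had Trappc9 (0.933), Smim24 (0.896) and Tmem198 (0.893). Hapln1 had Pxmp4 (0.947), Rnf111 (0.944) and Igsf11 (0.943), and Tnr had Dhx33 (0.964), Usp19 (0.95) and Sphkap (0.945). No gene stood in the lists of 2 members.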

How the data were processed

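RNA of both hippocampi from each mouse was measured on 1 array. The authors normalised the arrays by RMA and deposited log2 signals, and the submitters' processing notes also name limma and mm10; versions are not given in the sources used here. RMA compresses ratios of dim genes. Their steps were not repeated, and probe positions were not checked. The table held 35556 rows, of which 23410 with a gene symbol were tested; 21698 rows matched RefSeq by gene number, 3 by accession and 88 did not. The brightest cluster stood for a gene. All value columns had a sample (0 without one).

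A linear model with genotype alone was fitted in limma 3.58.1 (R 4.3.3), with moderated two-sided tests and Benjamini-Hochberg adjusted p-values over 23410 rows, and adjusted p under 0.05 was called. Exact permutation tests used all 252 allocations. Correlations used 100000 shuffles within genotype. The number of mice limits the precision. On simulated data for this comparison (23410 rows, 200 changed) recovery was 57% at a change of 0.3 and 95% at 0.6 on the log2 scale, and 8.43% of calls were false. The simulated rows varied independently of each other, and 200 were changed where 74 clusters were called in the data. These rates may therefore not hold for the measured values.

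The rank method of the study was rewritten over 25 pairs of arrays and may differ from its program. Other alternatives were the rows tested, normalizations, variance models, a choroid plexus covariate, the replicate number as a block, each array left out, and, chosen after the data had been seen, the removal of 3 arrays, a covariate of choroid markers in 2 copies and the 99 relations. The named genes are the members, up to 3 genes with the smallest p and the brightest of each matrix list, the 3 measured neighbours on each side of Adamts1 and Adamts5, and 3 genes most like each member. Members and lists were chosen with earlier results of these data known.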

Additional observations from a re-analysis of the deposited data

Results flagged for a closer look

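Control replicate 2 had the lowest Ncan signal, 10.83, against 11.02 to 11.09 in the other control mice, a gap of 0.733 of the group's range. The astrocyte marker mean of Ts65Dn replicate 4 was 10.60, against 10.47 to 10.50 in the other Ts65Dn mice, a gap of 0.797 of the range. The limit for 5 samples is 0.71, 40 groups were examined, and chance alone passes about 1 in 20.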

How the results depend on the processing

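The differences of Adamts1 and Adamts5 kept their direction in all settings, but the calls did not. The number of members called, 2, was 0 over all rows, 1 over rows at or above the median signal (Adamts5 was too dim to be tested), 0 with quantile normalization again, 1 with cyclic loess, 1 with trend and robust variances, 1 with the choroid covariate (also with its 7 genes in 2 copies alone), 0 without the 3 arrays highest in choroid plexus markers, 4 by the rank method, and 0 to 2 when each array was left out. Adamts1 lost its call at 0.32 over all rows (adjusted p = 0.0748), 0.31 after quantile normalization (0.0527), 0.32 with trend and robust variances (0.0591), 0.31 with the covariate (0.0715; 0.31 and 0.0672 with its genes in 2 copies alone) and 0.33 without those 3 arrays (0.199); leaving out arrays gave 0.29 to 0.35. Adamts5 lost its call at 0.29 over all rows (0.0502), 0.30 after quantile normalization (0.103), 0.30 with cyclic loess (0.0856) and 0.28 without those 3 arrays (0.17); leaving out arrays gave 0.27 to 0.32. All clusters called, 74, were 13 without those 3 arrays, 1255 by the rank method and 51 to 63 with an array left out. Matrix list genes called were 14 by the rank method and 0 otherwise. Acan turned to 0.01 with the covariate and 0.08 without those 3 arrays, and Tnr to -0.01 with array weights and -0.02 without those 3 arrays. Leaving out arrays gave -0.05 to 0.04 for Acan, -0.02 to 0.06 for Tnr, -0.14 to 0.00 for Adamts4 and -0.07 to 0.02 for the Adamts5 minus Adamts1 change. The causes were not tested.

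The labels do not say what a replicate number shares, and the numbers were not taken as pairs: the deviations of same-numbered mice correlated at 0.507, 0.269, 0.325, 0.0313 and 0.459, so not all 5 passed the limit of 0.1 used here. In 4 of 5 numbers a mouse correlated best with its own number, which is a hint of pairing from the data. With the replicate block 76 clusters were called, against 74 without it, and 0 members, with Adamts1 at 0.32 (adjusted p = 0.149) and Adamts5 at 0.29 (0.117).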
